A study of Mus musculus with 18 samples.

Results

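Described here are 8 alpha-defensin rows of mouse chromosome 8, Defa3, Defa17, Defa21, Defa22, Defa24, Defa29, the pseudogene Defa-ps6 and Gm15292, out of 55487 rows in the deposited table of counts. They were taken by name, because earlier results of these same libraries had pointed to them as lower after adrenergic stimulation, so their levels against vehicle are given as a description and not as a test. The libraries came from small intestinal organoids, which are crypt-derived epithelial cultures, grown from wild-type female C57BL/6 mice. Organoids received 1 µM norepinephrine or its HCl vehicle, or 1 µM UK14,304 or its DMSO vehicle, for 4 days. Norepinephrine is the transmitter of sympathetic nerves and acts on alpha- and beta-adrenergic receptors, while UK14,304 is an agonist of the alpha2 receptors. The 18 samples were 4 with HCl, 5 with norepinephrine, 4 with DMSO and 5 with UK14,304, and the labels give each a replicate number. Number 5 had no vehicle sample here. Such cultures hold epithelium alone, without nerves, immune cells or stroma.

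Alpha-defensins are small cationic antimicrobial peptides that Paneth cells at the base of the crypt pack into granules and release into the gut lumen. In mice they are also called cryptdins. They are made as inactive precursors, which matrix metalloproteinase 7 (Mmp7) cleaves in the mouse intestine, and their genes stand in a cluster of near copies. Wnt signalling through TCF factors is known to promote Paneth cell maturation and cryptdin expression.

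In GRCm38 coordinates the rows are, in their order on the chromosome, Defa21 (ENSMUSG00000074447, chr8:21025545-21026516), Defa22 (ENSMUSG00000074443, chr8:21162277-21163249), Defa-ps6 (ENSMUSG00000095328, chr8:21225406-21226247), Gm15292 (ENSMUSG00000074441, chr8:21249754-21250556) and Defa3 (ENSMUSG00000074440, chr8:21287409-21288377), followed by Defa29 (ENSMUSG00000074437, chr8:21325887-21327020), Defa17 (ENSMUSG00000060208, chr8:21655780-21656735) and Defa24 (ENSMUSG00000064213, chr8:21734494-21735471). Each has 2 exons, and Defa29 alone is on the reverse strand.

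The sequences bear on every value, because a read that fits several copies was not counted. Shown first are the last 120 coding bases of each gene (for Defa-ps6, of its annotated transcript), read from the GRCm38 transcripts, since in cryptdins this end encodes the mature peptide. Capitals mark the bases that differ from the aligned Defa24, and in Defa29 they mark a repeated TGCCC.
Defa24: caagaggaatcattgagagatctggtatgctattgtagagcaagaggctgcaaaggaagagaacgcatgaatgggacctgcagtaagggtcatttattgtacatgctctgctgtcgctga
Defa17: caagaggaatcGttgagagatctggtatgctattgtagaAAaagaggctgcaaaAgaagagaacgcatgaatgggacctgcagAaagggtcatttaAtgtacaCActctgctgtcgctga
Defa3: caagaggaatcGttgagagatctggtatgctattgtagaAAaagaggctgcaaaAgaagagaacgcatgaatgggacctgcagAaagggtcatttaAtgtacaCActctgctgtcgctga
Gm15292: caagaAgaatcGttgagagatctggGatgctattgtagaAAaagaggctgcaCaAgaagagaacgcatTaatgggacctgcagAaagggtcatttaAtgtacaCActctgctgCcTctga
Defa-ps6: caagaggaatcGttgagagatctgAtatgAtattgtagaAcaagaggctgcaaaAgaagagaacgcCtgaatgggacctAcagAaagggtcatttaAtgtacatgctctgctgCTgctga
Defa21: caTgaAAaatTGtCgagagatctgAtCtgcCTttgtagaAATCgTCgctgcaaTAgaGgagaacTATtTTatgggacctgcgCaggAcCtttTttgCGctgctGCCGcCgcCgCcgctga
Defa22: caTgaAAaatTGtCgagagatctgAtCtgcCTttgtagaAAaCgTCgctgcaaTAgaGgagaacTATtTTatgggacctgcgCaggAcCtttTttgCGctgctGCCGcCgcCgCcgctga
Defa29: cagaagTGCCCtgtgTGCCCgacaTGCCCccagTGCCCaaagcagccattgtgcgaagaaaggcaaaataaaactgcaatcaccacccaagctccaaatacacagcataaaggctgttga

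In Defa24 the window crosses an intron and lies on the forward strand at chr8:21734699-21735377 (GRCm38). Defa17 (chr8:21655963-21656641) and Defa3 (chr8:21287605-21288283) have the same coding sequence over all 282 bases, so that reads from their coding part cannot be placed. Both were 95.7% identical to Defa24. Defa21 (chr8:21025750-21026423) and Defa22 (chr8:21162482-21163155) differed from each other at 2 of 282 bases and were 80.8% and 81.5% identical to Defa24. For Gm15292 (chr8:21249924-21250461) the identity to Defa24 was 89.0%, and for Defa-ps6 (chr8:21225568-21226247) it was 91.5%. Defa29, on the reverse strand at chr8:21325999-21326118, had 351 coding bases and the lowest identity to the other members, between 62.3% and 65.5%. Gaps count as differences in all these identities. Against Defa24, Defa29 had 48 mismatches and 77 gaps, while Defa21 had 47 mismatches and 8 gaps. Defa29 is named a cryptdin-related sequence among its RefSeq synonyms. Its window held TGCCC 4 times, and the windows of the other 7 members held it 0 times.

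The amount of sequence that a read could be placed on differed as well. Cut into windows of 50 bases, the read length, the Defa24 transcript had 266 of 370 windows found in no other gene's transcripts (71.9%). This share was 62.8% for Gm15292, 56.6% for Defa29, 35.2% for Defa-ps6, 27.1% for Defa21 and 25.1% for Defa22. It was 8.0% for Defa17 and 7.8% for Defa3, each with 28 unique windows. The pairs shared most of what remained. Defa17 shared 92.0% of its windows with Defa3, and Defa21 shared 72.9% with Defa22. Reads that fit several copies equally well are thus missing from every value below. Over the family, 44 rows carried an alpha-defensin name, and 17 of them had 0 counts in all 18 samples. Of the 27 protein-coding rows, 9 had 0 counts, and 6 of these 9 had no unique window at all, so a count of 0 there does not show that the gene was silent. Of the 18 protein-coding rows with counts, 1 had no unique window either (Gm7849, with 3 counts in all), so counts need not come from unique windows alone.

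**Figure D1:**
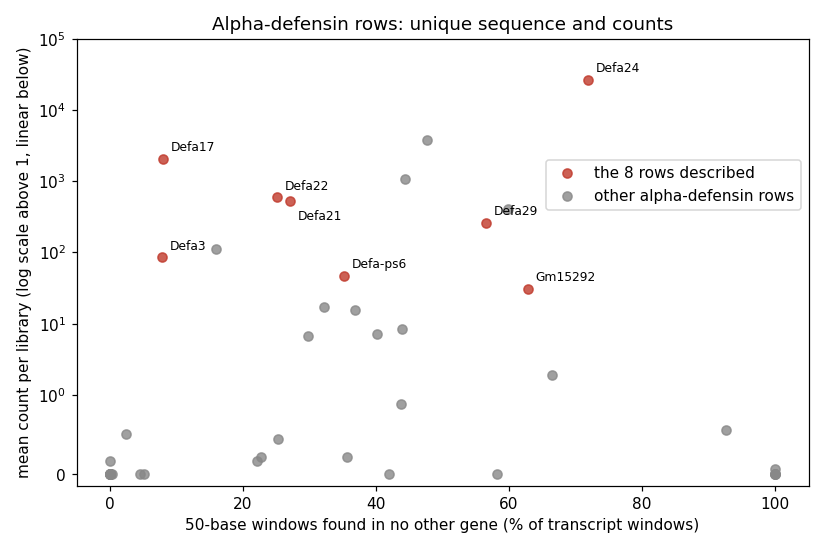
Share of unique 50-base windows (percent of the transcript's windows, x axis) against the mean count per library (y axis, log scale above 1 and linear below) for the alpha-defensin rows. Defa24 combined 71.9% unique windows with a mean of 26825 counts per library, while Defa17 reached 2064 counts with 8.0% unique windows.

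Of the promoter sequences available for the members, those of Defa21 and Defa22 were compared. Their 250 bases before the annotated start were the same at every position. The last 160 bases are given for Defa21 (chr8:21025385-21025544, forward strand, RefSeq, GRCm38.p6), with matches to TCF/LEF core letters and to a TATA box in capitals.
Defa21 promoter: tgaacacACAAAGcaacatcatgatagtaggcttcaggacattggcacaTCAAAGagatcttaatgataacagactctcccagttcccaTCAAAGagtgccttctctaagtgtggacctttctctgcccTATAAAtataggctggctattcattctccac
The letters CTTTGA stood on the reverse strand at -111 and -71, CTTTGT on the reverse strand at -153, and TATAAA on the forward strand at -31 from the start. Searched on both strands, CTTTGA was present in 13.83% of 32851 mouse promoters of the same length, CTTTGT in 16.46% and TATAAA in 12.37%. Among other alpha-defensin promoters, those of Defa23, Defa31, Defa2, Defa20 and Defa32 had the same number of each match. That of Gm14851 (Defa38 in RefSeq) had TATAAA alone. These are matches of letters only.

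The libraries held between 21866149 and 27850373 counts, and the 8 members made up between 0.0886% (95% Wilson interval 0.0873% to 0.0898%) and 0.159% (0.157% to 0.160%) of a library. These intervals cover counting error only. The epithelial markers Epcam, Cdh1, Vil1, Krt8, Krt18 and Cdx2 summed to between 5648 and 6241 CPM, that is, counts corrected for library size. The non-epithelial list of 10 markers, such as Ptprc and Col1a1, summed to between 7.88 and 11.9 CPM, with 3 of the 10 above the filter on low counts. Most of this sum was Vim, with group means from 7.90 to 8.06 CPM, while those of Ptprc ran from 0.575 to 0.908 CPM. Ribosomal RNA took over 1% of the counts in 7 libraries (1.83% to 3.06%) and 0.313% to 0.619% in the other 11. The 7 were 1 with HCl, 2 with norepinephrine, 3 with DMSO and 1 with UK14,304.

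Defa24 dominated the members in every library, with between 85.4% and 89.96% of their counts. Per kilobase of exon and over the 8 vehicle samples, its level was 2819 ± 416 CPM per kilobase (SD, n = 8), and that of Defa17 was 229 ± 27.1. Defa22 followed with 72.7 ± 31.5 CPM per kilobase and Defa21 with 64.5 ± 26.9. The ranges of Defa22 and Defa21 overlapped, although Defa22 was the higher one in 16 of 18 libraries. Defa29, the cryptdin-related gene, had 29.6 ± 6.38 CPM per kilobase and overlapped in range with Defa21, but it was the lower of the pair in 18 of 18 libraries. Defa3 with 11.3 ± 2.73 and Defa-ps6 with 9.98 ± 3.23 CPM per kilobase did not differ beyond their spread. Gm15292, which RefSeq names Defa40, was the lowest with 4.70 ± 1.38 CPM per kilobase. Since length does not correct for lost reads, the order changes when levels are set per unique window. On that scale Defa3 stood above Defa29, with 16.55 against 5.78 CPM per 100 unique windows. Defa17 came close to Defa24, with 325 against 444 CPM per 100 unique windows, but its mean stayed the lower one.

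After either agonist the fitted level of all 8 members was below that of the vehicle, but not by the same amount for each. The samples are compared here in one fit of all 15247 genes with enough counts, with the replicate number as a block, and all values are CPM normalised by TMM. In bulk samples fewer Paneth cells and less of this RNA per Paneth cell cannot be told apart. Defa29, the member with the lowest identity when gaps count as differences, is given first.

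In HCl vehicle Defa29 stood at 16.4, 11.8, 16.0 and 16.3 CPM for numbers 1 to 4. With norepinephrine it stood at 8.92, 4.13, 6.56, 8.79 and 8.39 CPM for numbers 1 to 5. Every norepinephrine sample was thus below every HCl sample. In DMSO vehicle the values were 16.1, 8.39, 17.8 and 17.5 CPM, and with UK14,304 they were 7.97, 3.91, 7.93, 5.96 and 7.48 CPM. Again the groups did not overlap, and number 2 was the lowest of numbers 1 to 4 in all 4 groups. The log2 fold change was -1.11 (standard error 0.115) with norepinephrine and -1.21 (standard error 0.114) with UK14,304, or 0.464 and 0.432 times the vehicle level.

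Defa24, the most abundant member, stood closer to its vehicle. Its levels for numbers 1 to 4 were 1402, 951, 1308 and 1091 CPM in HCl vehicle, against 1090, 800, 1103, 1101 and 1018 CPM for numbers 1 to 5 with norepinephrine. In DMSO vehicle they were 1273, 933, 1311 and 1182 CPM, against 1180, 801, 1188, 796 and 1044 CPM with UK14,304. These groups overlapped for both agonists. In number 4 the norepinephrine sample stood at 1.01 times its vehicle, whereas the UK14,304 sample of that number stood at 0.674 times its own. The log2 fold change was -0.22 (standard error 0.0672) with norepinephrine and -0.25 (standard error 0.0673) with UK14,304.

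Defa17, which encodes a cryptdin precursor close to that of Defa24, gave almost the same values, -0.21 (standard error 0.0741) and -0.24 (standard error 0.074) on the log2 scale. Its level ranged from 76.9 to 106 CPM with HCl, from 64.0 to 86.5 with norepinephrine, from 76.0 to 98.8 with DMSO and from 59.8 to 92.0 with UK14,304. In all 18 libraries its counts were between 7.23% and 8.14% of those of Defa24. Of its 28 unique windows, 9 differed from a Defa24 window at only 2 bases. Within 2 bases of a Defa24 window lay 55 of 260 unique windows in Defa29, 24 of 93 in Defa22 and 16 of 100 in Defa21. Whether reads from Defa24 took part in the counts of these members or of Defa17 was not tested.

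Defa3, with the same coding sequence as Defa17, had other values. Its levels were 6.09, 3.29, 5.17 and 3.70 CPM in HCl vehicle and 2.22, 1.88, 3.06, 2.29 and 2.50 CPM with norepinephrine, without overlap. In DMSO vehicle they were 5.76, 3.16, 5.05 and 4.85 CPM, against 3.25, 2.12, 3.72, 1.94 and 2.33 CPM with UK14,304. Here the groups overlapped, since number 2 of the vehicle lay below numbers 1 and 3 of the agonist. The log2 fold changes were -0.90 (standard error 0.145) and -0.81 (standard error 0.139). These rest on between 41 and 149 counts per library, for a transcript with 28 unique windows.

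Defa21 and Defa22, with the same promoter and nearly the same coding sequence, gave similar values. Defa21 had 28.3, 16.4, 37.8 and 24.7 CPM in HCl vehicle and 16.1, 7.58, 22.6, 15.5 and 17.9 CPM with norepinephrine. In DMSO vehicle it had 26.1, 11.3, 46.8 and 24.3 CPM, against 16.8, 9.62, 26.2, 13.4 and 21.5 CPM with UK14,304. The groups overlapped, but each agonist sample was below the vehicle sample of its own number in 4 of 4 numbers. The log2 fold changes of Defa21 were -0.84 (standard error 0.0982) and -0.65 (standard error 0.0965). Defa22 ranged from 19.2 to 45.7 CPM with HCl, from 10.5 to 26.8 with norepinephrine, from 13.9 to 53.8 with DMSO and from 9.76 to 32.1 with UK14,304. Its log2 fold changes were -0.69 (standard error 0.104) and -0.70 (standard error 0.103).

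The 2 members with the fewest counts had the lowest fold changes, Defa-ps6 with norepinephrine and Gm15292 with UK14,304. Defa-ps6, a pseudogene with an annotated transcript, had between 16 and 111 counts per library. HCl samples had 2.76 ± 0.734 CPM (SD, n = 4) and norepinephrine samples 1.10 ± 0.338 CPM (SD, n = 5), while DMSO samples had 2.87 ± 1.18 CPM (SD, n = 4) and UK14,304 samples 1.36 ± 0.49 CPM (SD, n = 5). Its log2 fold changes were -1.31 (standard error 0.219) and -1.03 (standard error 0.206). Gm15292 had between 9 and 69 counts per library. It ranged from 0.413 to 1.23 CPM with norepinephrine and from 0.395 to 1.10 CPM with UK14,304, where every sample was below the lowest DMSO sample at 1.42 CPM. Its log2 fold changes were -1.01 (standard error 0.187) and -1.23 (standard error 0.177). Single values of this pair carry the largest counting error of the 8.

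**Figure D2:**
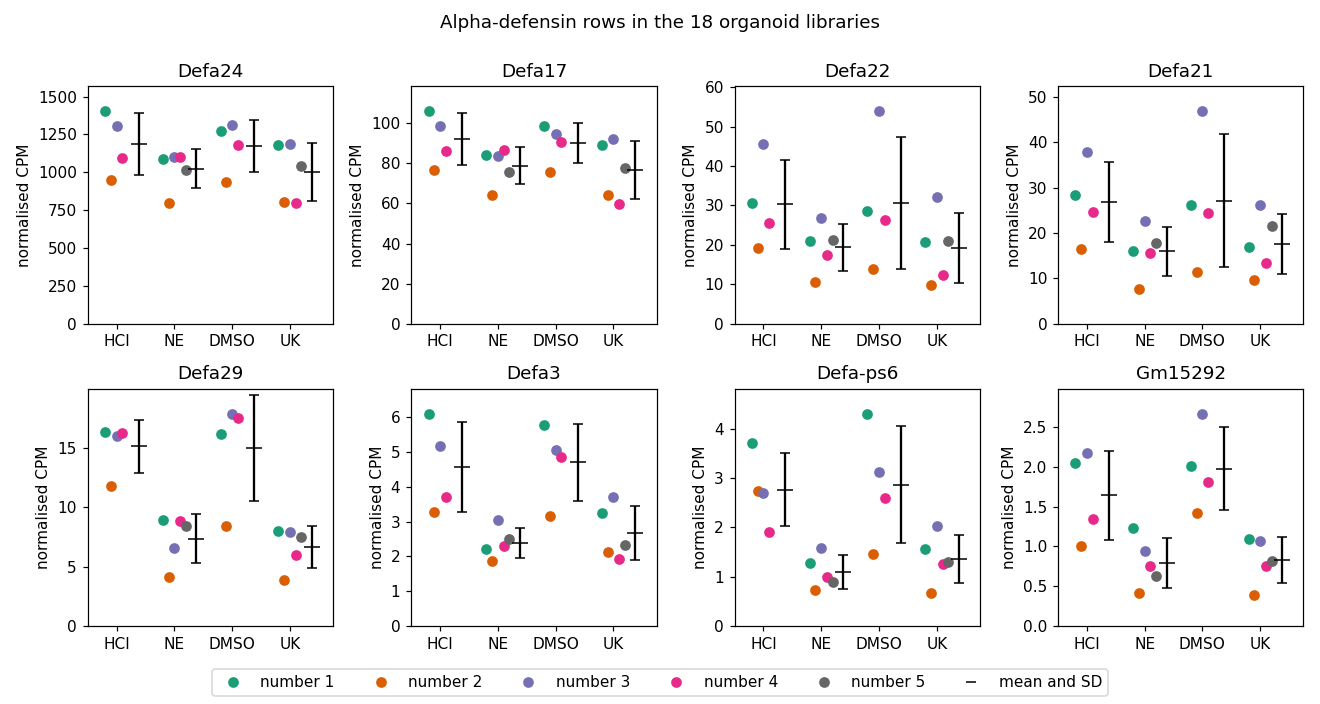
Normalised CPM (y axis, from 0, with its own scale in each panel) of the 8 members in HCl vehicle, norepinephrine (NE), DMSO vehicle and UK14,304 (UK) samples, coloured by replicate number, with the mean and SD of each group in black. Defa29 lies between 11.8 and 16.4 CPM with HCl and between 4.13 and 8.92 CPM with norepinephrine, while the groups of Defa24 overlap, and number 2 is low in most panels.

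Over the 8 members the median log2 fold change was -0.87 with norepinephrine and -0.75 with UK14,304, beside -0.0077 and -0.0043 over all tested genes. Among the members, 3 did not overlap between norepinephrine and HCl (Defa3, Defa29 and Defa-ps6) and 2 did not overlap between UK14,304 and DMSO (Defa29 and Gm15292), beside 0.78% and 1.78% of all tested genes with every agonist sample below every vehicle sample. Of all tested genes, 0.105% passed an adjusted p of 0.05 with norepinephrine and 1.22% with UK14,304 (edgeR). Compared number by number, 6 of 8 members were below vehicle in 4 of 4 numbers with norepinephrine and 8 of 8 with UK14,304, beside 8.26% and 15.5% of all tested genes. As the members were chosen on these contrasts, nothing follows from these counts. Without the block the log2 fold changes of the members were similar, with medians of -0.84 and -0.75, but their standard errors were larger, 0.248 for Defa29 with either agonist.

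**Figure D3:**
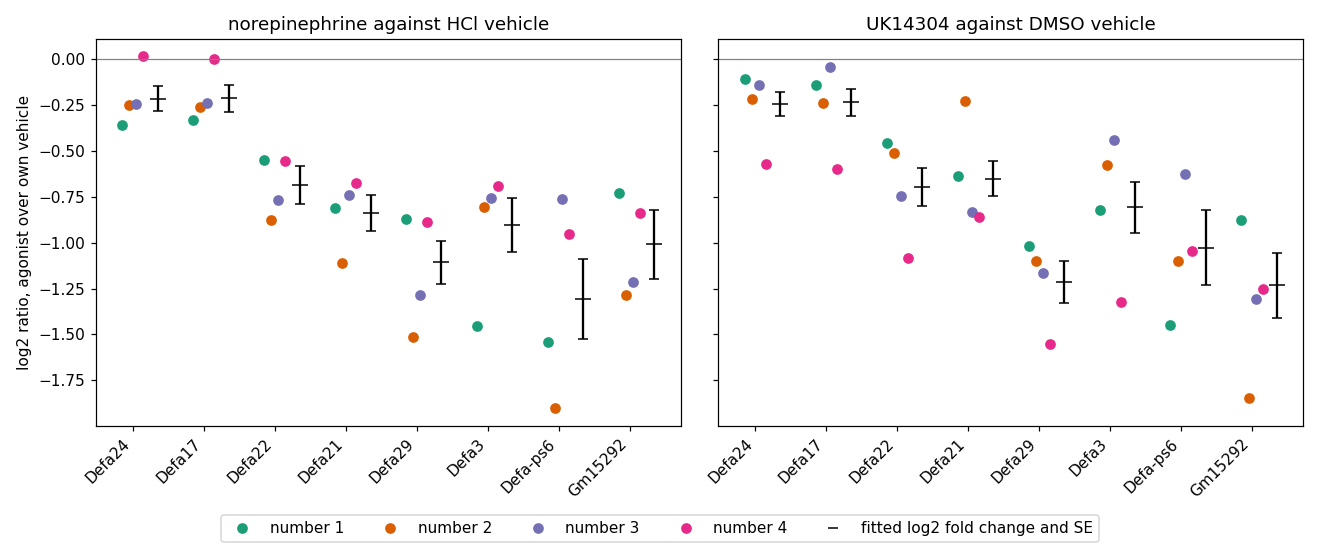
Log2 ratio of each agonist sample to the vehicle sample of the same replicate number (y axis) for the 8 members, with the fitted log2 fold change and its standard error in black. With norepinephrine, number 4 lies just above 0 for Defa24 and Defa17, and all other points of both agonists lie below 0.

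The make-up of the alpha-defensin counts differed accordingly. Relative to the counts of Defa24, those of Defa29 were between 0.8995% and 1.49% in the 8 vehicle samples and between 0.488% and 0.824% in the 10 agonist samples. For Defa3 they were between 0.339% and 0.453% in vehicle and between 0.204% and 0.313% with an agonist. Neither pair of ranges overlapped, whereas the ranges of Defa17, Defa21, Defa22, Defa-ps6 and Gm15292 did. For Defa-ps6, vehicle reached down to 0.156% and agonist up to 0.170%. For Gm15292, these were 0.106% and 0.113%. No share over all genes is given for such ratios. Being ratios within a library, these values do not depend on the scaling between libraries. Defa21 and Defa22 together had medians of 4.40% with HCl and 4.29% with DMSO, against 3.39% with norepinephrine and 3.25% with UK14,304, with number 3 the highest in each group. These ratios come from the contrasts that chose the members and are a description.

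**Figure D4:**
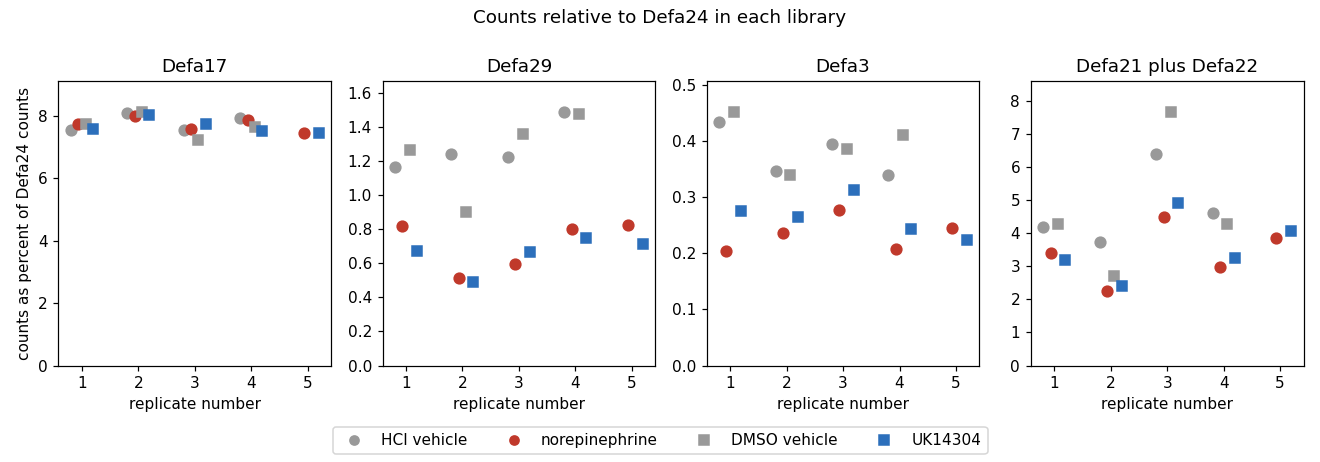
Counts of Defa17, Defa29, Defa3 and of Defa21 plus Defa22 as percent of the Defa24 counts of the same library (y axis, from 0), by replicate number (x axis), with vehicle samples in grey, norepinephrine in red and UK14,304 in blue. Defa17 stays between 7.23% and 8.14% throughout, whereas Defa29 and Defa3 are lower in every agonist sample than in any vehicle sample.

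Comparisons other than those that chose the members were tested next. Those between agonists and between vehicles use the same values as that choice, so their counts are not independent of it. Between both agonists, which were given at the same dose and for the same time, 0 of 8 members passed (edgeR, Benjamini-Hochberg over all genes), 0 had an unadjusted p under 0.05, and DESeq2 called 0 as well. In this comparison 0.0656% of all tested genes passed. The log2 differences, UK14,304 minus norepinephrine, ran from -0.15 for Defa29 (standard error 0.114) to 0.30 for Defa-ps6 (standard error 0.221). For Defa24 the difference was -0.04 (standard error 0.0619), so its precision was far better than that of the pseudogene.

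Between the vehicles, too, 0 of 8 members passed with edgeR, 0 had an unadjusted p under 0.05, and DESeq2 called 0. None of the 15247 genes passed here (0.0%), and 277 of them had an unadjusted p under 0.05. The log2 differences, DMSO minus HCl, ran from -0.05 for Defa21 (standard error 0.0967) to 0.28 for Gm15292 (standard error 0.166). The vehicle background of Defa29 was -0.04 (standard error 0.109).

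With all samples in the fit, replicate numbers differed for all 8 members. In an F test of the numbers 8 of 8 members passed, beside 13.8% of all tested genes, with adjusted p from 5.64e-08 for Defa21 to 0.021 for Defa-ps6 (edgeR, quasi-likelihood). The fit that chose the members used the same values and held the replicate number as a term, so this count is not independent of that choice. Number 2 had the lowest mean of numbers 1 to 4 for all 8 members. For Defa21 and Defa22 number 3 was the highest and number 2 the lowest in 4 of 4 groups, beside 4.84% of all genes with that highest and 2.86% with that lowest number. Averaged over the groups, number 3 was 2.97 times number 2 for Defa21 and 2.96 times for Defa22. For Defa24 and Defa17 the highest number was only 1.42 and 1.34 times the lowest. When number 2 was left out of every group, 2 of 8 passed, namely Defa21 and Defa22, and without number 3 it was 5 of 8. The other 6 members were thus called only with number 2 in the fit, which also had fewer samples without it. The labels do not say what else the numbers share.

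Across the 18 libraries the members moved together. Pearson's r between the log2 CPM of 2 members was between 0.764 and 0.984 over 28 pairs, with a median of 0.824. All points share the library, its depth, its treatment and its replicate number, and reads of near copies were dropped from each. The members were also chosen as lower after adrenergic stimulation, so these r values are a description. No r over other pairs of genes is given beside them. Outside the gene cluster, the 10 genes most like the summed members over the 18 libraries were Itln1 (r = 0.967), Pepd (r = 0.964), Ang4 (r = 0.943), Lyz1 (r = 0.94), Gtf2h3 (r = 0.939), Pimreg (r = 0.923), St3gal4 (r = 0.911), Syngr1 (r = 0.903), Dpep1 (r = 0.897) and Tst (r = 0.893). Itln1 encodes the lectin intelectin, Ang4 an antimicrobial ribonuclease and Lyz1 the Paneth cell lysozyme. The remaining genes of these 10 are not in the Paneth cell lists used below. None of those remaining genes passed with either agonist (edgeR), beside 0.105% and 1.22% of all tested genes. As Defa24 makes up most of the sum, this ranking is mainly a likeness to Defa24.

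In the stretch of chromosome 8 from the first to the last Defa gene of the table (chr8:19210462-21750000), 99 other rows were counted. Of these, 49 had 0 counts in all samples and 17 could be tested. Among the 8 other alpha-defensin rows tested, all 8 had negative log2 fold changes, with medians of -0.45 for norepinephrine and -0.56 for UK14,304, beside 52.7% and 51.3% of all tested genes with negative values. Of the 8, 3 fell after each agonist, Gm14851 (Defa38 in RefSeq), Defa30 and Defa26, beside 0.105% and 1.22% of all tested genes passing. Gm14851 had 53.5 ± 11.5 CPM with HCl (SD, n = 4) and 35.8 ± 6.51 with norepinephrine (SD, n = 5), an edgeR log2 fold change of -0.61 (adjusted p = 9.23e-05). With UK14,304 its log2 fold change was -0.60 (edgeR adjusted p = 7.77e-05). Defa30, next in level to Defa24 per kilobase, had log2 fold changes of -0.45 (edgeR adjusted p = 0.000843) and -0.44 (edgeR adjusted p = 0.000564). For Defa26 they were -0.43 (edgeR adjusted p = 0.0127) and -0.39 (edgeR adjusted p = 0.0071). The other 5, Defa28, Defa34, Defa35, Gm15293 and Defa-ps1, did not pass.

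Of the 9 tested rows there without an alpha-defensin name, 1 passed for each agonist, beside the same 0.105% and 1.22% of all tested genes. This was AY761184, with log2 fold changes of -0.46 (edgeR adjusted p = 0.00432) and -0.48 (edgeR adjusted p = 0.00134). The alpha-defensin row Defa-ps7 shared 33.6% of its windows with AY761184, so the missing name does not show that AY761184 is unrelated. The remaining 8, Rpl19-ps11, Gm6483, Gm10060, Gm40466, Gm21811, 6820431F20Rik, 2610005L07Rik and Gm21092, did not pass in either comparison. Without the replicate block none of the 4 passing rows was called, the smallest adjusted p being 0.713 for norepinephrine and 0.36 for UK14,304 (edgeR). With number 1 left out of every group, 1 of them passed for norepinephrine, Gm14851. These rows lie outside the 8 members, but they were measured in the same libraries.

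Other Paneth cell genes were taken from 4 lists of granule products, peptide processing, niche signals and regulators, with 41 genes of which 39 were tested. With norepinephrine 3 fell and 1 rose, and with UK14,304 4 fell and 1 rose, beside 0.105% and 1.22% of all tested genes. All were granule products. Mptx2, a pentraxin of Paneth cells, fell from 28.7 ± 9.09 to 17.1 ± 5.71 CPM with norepinephrine (SD, n = 4 and 5), with a log2 fold change of -0.78 (edgeR adjusted p = 9.23e-05). With UK14,304 its log2 fold change was -0.70 (edgeR adjusted p = 0.000189). Lyz1 fell by 0.37 and 0.31 on the log2 scale (edgeR adjusted p = 0.0019 and 0.0031). The phospholipase gene Pla2g2a fell after norepinephrine (log2 fold change -0.49, edgeR adjusted p = 0.00205), and its value with UK14,304 was -0.23 (edgeR adjusted p = 0.119).

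Ang4 passed with UK14,304 (-0.27, edgeR adjusted p = 0.022), and had -0.29 with norepinephrine (edgeR adjusted p = 0.0702). The lectin gene Reg4 likewise passed with UK14,304 (-0.26, edgeR adjusted p = 0.0031), with -0.22 for norepinephrine (edgeR adjusted p = 0.0569). Reg3b, a bactericidal lectin that enterocytes also make, was the gene that rose with both, by 0.30 (edgeR adjusted p = 0.00863) and 0.27 (edgeR adjusted p = 0.00657). Mmp7, the convertase of the alpha-defensin precursors, had log2 fold changes of -0.26 (edgeR adjusted p = 0.0563) and -0.20 (edgeR adjusted p = 0.0685). Itln1 had -0.21 (edgeR adjusted p = 0.122) and -0.17 (edgeR adjusted p = 0.0811). Wnt3, a niche signal of Paneth cells, had -0.18 (edgeR adjusted p = 0.589) and -0.05 (edgeR adjusted p = 0.796). None of the 5 processing, 6 niche or 13 regulator genes tested passed. Without the block 0 of the 39 passed for either agonist with edgeR, beside 0.0% and 0.0394% of all tested genes, and 7 and 6 had an unadjusted p under 0.05.

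**Figure D5:**
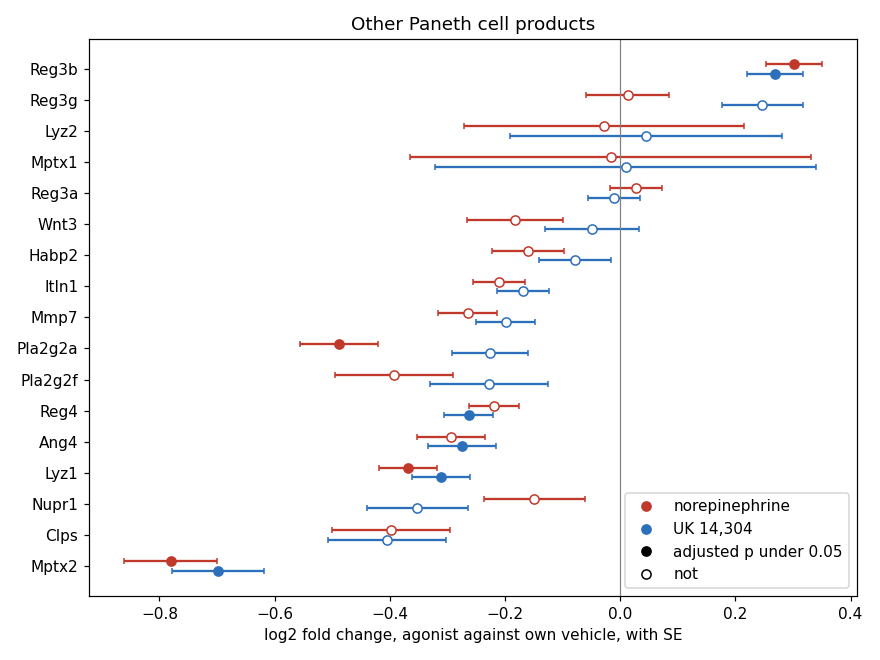
Log2 fold change with its standard error (x axis) of the Paneth cell granule genes and of Mmp7 and Wnt3 (y axis) after norepinephrine (red) and UK14,304 (blue), with filled points for an adjusted p under 0.05 in edgeR with the replicate block. Mptx2 lies lowest, at -0.78 and -0.70, and Reg3b is the one gene above 0 that passed.

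Of the goblet cell list, 1 of 4 tested genes passed with UK14,304, namely Agr2 (log2 fold change -0.16, edgeR adjusted p = 0.0324), beside 1.22% of all tested genes, and 0 with norepinephrine. Without the block Agr2 did not pass (edgeR adjusted p = 0.26). In the stem cell, enterocyte, enteroendocrine and tuft cell lists 0 of 6, 4, 5 and 2 tested genes passed for either agonist. The summed stem cell markers ranged from 4352 to 5472 CPM with HCl and from 4529 to 6271 with norepinephrine, and from 3933 to 6334 with DMSO and 4820 to 6843 with UK14,304. Their part in the levels of the alpha-defensins was not tested.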

How the data were processed

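Organoid RNA was sequenced as single-end reads of 50 bases after a KAPA mRNA HyperPrep library preparation. The authors aligned the reads to GRCm38 with STAR 2.7.3 and deposited counts, that is raw whole-number counts of reads per gene. The file header names featureCounts 2.0.1 with Ensembl release 102, while the submitters' processing notes name Subread 1.6.4. By its recorded call, strand was not used and reads that fit several places were not counted. The deposited length of each gene, another column, served for levels per kilobase.

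Counts were normalised by TMM and fitted with edgeR 4.0.16 (R 4.3.3, filterByExpr by group, robust quasi-likelihood) over all 18 samples with group and replicate number as terms, and p-values were adjusted by Benjamini-Hochberg over all 15247 tested genes. Each standard error is the size of the log2 fold change divided by the square root of its quasi-likelihood F statistic. For the members against their vehicles it is given as a description and not as a test. The script was tested on simulated data. The 8 members and all gene lists were chosen with earlier results of these data known. The numbers were taken to pair the samples, because deviations from the group means correlated above 0.1 in every pair of the same number within each agonist and its own vehicle, with r from 0.119 to 0.431 for norepinephrine and HCl and from 0.155 to 0.519 for UK14,304 and DMSO. This did not hold between the agonists, where the r of same-numbered samples went down to -0.212. With no vehicle sample, number 5 entered the agonist effects under the block only through the other agonist and the shared spread. Without number 5 in any group the median log2 fold changes of the members were -0.87 with norepinephrine and -0.73 with UK14,304. Nothing in the labels says whether samples came from separate cultures, so p-values measure the spread between these samples.

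Genes are named by this rule. All 8 members are given, the tested rows of the defensin cluster, the passing genes of the Paneth cell lists with Mmp7, Lyz1, Ang4, Itln1, Mptx2 and Wnt3, and the 10 genes outside the cluster most correlated with the summed members. Agr2 was named after its value was seen. Windows and coding sequences came from GENCODE M21 transcripts and promoters from RefSeq. Alternatives were DESeq2 1.42.0 and its size factors, filters on low counts, the 2 groups alone, no block, the ribosomal RNA share as a covariate, removal of a GC trend and leaving out samples or numbers. Depth was 21866149 to 27850373 counts per sample.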

Additional observations from a re-analysis of the deposited data

Results flagged for a closer look

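In groups of 4 and 5 samples, 3 values of the members or their sum stood apart by the gap to the next sample. They were found among 36 groups looked at, where chance gives about 1 in 20. Defa24 makes up most of the sum and the members moved together, so the 36 groups are not independent. The Defa24 level of norepinephrine number 2 was 799.7 CPM, the lowest of its group, and the summed members were lowest in the same sample with 889 CPM. Defa29 in HCl vehicle was lowest in number 2 with 11.8 CPM. All 3 are samples of number 2, which also had the lowest mean of numbers 1 to 4 for all 8 members.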

How the results depend on the processing

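All members tested, at least 7 of 8, were below vehicle for both agonists in each of 32 settings. Their median log2 fold change kept its direction. When samples were left out singly, this median ranged from -0.93 to -0.81 with norepinephrine and from -0.82 to -0.66 with UK14,304. The members were chosen on these contrasts in these libraries, so nothing follows from that direction. The count of members differing between the numbers was 7 to 8 without single samples, but 2 without number 2 and 5 without number 3 in every group, an alternative added after seeing the data. No member passed between agonists or between vehicles in any setting run. Counts of other Paneth cell genes passing were less stable. For norepinephrine 4 passed, against 0 with no replicate block, 9 with no filter on low counts, 9 with DESeq2, 7 with the GC trend removed, 1 without number 1, 1 without number 3 and 14 without number 4. For UK14,304 5 passed, against 0 with no replicate block, 10 with no filter, 10 with DESeq2, 9 with the 2 groups alone, 9 with the GC trend removed, 3 without number 1, 3 without number 2, 1 without number 3 and 9 without number 4. Without single samples they ranged from 3 to 13 and from 4 to 10, the highest without norepinephrine number 4 for each. Over all genes 16 passed with norepinephrine and 186 with UK14,304, against 0 and 6 with no replicate block, and 10 to 2529 and 68 to 1225 without single samples. The cause was not tested. Depth limits Gm15292 and Defa-ps6 most, at 9 to 69 and 16 to 111 counts per library.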
